A study of Mus musculus with 14 samples.

Results

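Fas and 7 genes of the death-receptor pathway (Fasl, Fadd, Casp8, Cflar, Ripk1, Ripk3 and Bid) were read in the hippocampus of lupus-prone and control mice. They were taken by symbol, through the GENCODE M21 annotation, from count tables of 55536 Ensembl genes and 141862 Ensembl transcripts, and all 5 annotated transcripts of Fas were read separately. Poly(A) RNA of 14 mice was sequenced when they were 10 months old, each mouse as its own library. The 4 MRL mice were B6.MRL-Fas lpr/J, that is, C57BL/6 mice that carry the lpr allele of Fas. The 4 MRL-IRAK4-KD mice carried lpr together with a kinase-dead form of IRAK4, a kinase that relays signals from toll-like receptors and the IL-1 receptor. The 3 C57BL/6 mice (C57BL6/J in the labels) carried neither allele, and the 3 IRAK4-KD mice carried, by their labels, the kinase-dead form alone, against which the Fas transcripts of replicate 3 are read further on. All groups shared the C57BL/6 background and were perfused before dissection. Both alleles were present in every cell, and the sources used here do not say whether mice of a group were littermates.

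Fas is a receptor of the tumour necrosis factor receptor family that triggers apoptosis when bound by Fas ligand, the product of Fasl. The bound receptor recruits the adaptor FADD, which brings in caspase-8, and caspase-8 cleaves executioner caspases as well as Bid, the link to mitochondrial apoptosis. The caspase-8 homologue c-FLIP, encoded by Cflar, limits this step, and the kinases RIPK1 and RIPK3 drive necroptosis when caspase-8 is inactive. The lpr allele is an insertion of a retrovirus-like element in an intron of Fas that disturbs splicing of its transcripts, and lymphocytes that would be removed through Fas accumulate in such mice. The mm10 assembly is of C57BL/6J, which does not carry the insertion.

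Fas (ENSMUSG00000024778.13) lies on the plus strand of chromosome 19 of mm10, from 34290666 to 34327772. Its main protein-coding transcript, Fas-201 (ENSMUST00000025691.12), has 1481 bases in 9 exons and 327 codons. Fas-204 (ENSMUST00000235709.1) is annotated as a target of nonsense-mediated decay, the pathway that degrades transcripts with an early stop codon. It has 1625 bases in 10 exons and shares 1467 bases with Fas-201, and the 158 bases that it alone has are a single exon, chr19:34310012-34310169, within the second intron of Fas-201. The length of this exon leaves a remainder of 2 on division by 3, and a TGA stop codon follows in the next exon, so that the reading frame ends after 123 codons. The stretch around this exon is shown because the exon is the main annotated difference between Fas-201 and Fas-204. The sequences are those of the GENCODE M21 transcripts, 5′ to 3′, with the extra exon in capitals, 20 bases before it and the 30 bases that end with the stop codon after it.
Fas-204: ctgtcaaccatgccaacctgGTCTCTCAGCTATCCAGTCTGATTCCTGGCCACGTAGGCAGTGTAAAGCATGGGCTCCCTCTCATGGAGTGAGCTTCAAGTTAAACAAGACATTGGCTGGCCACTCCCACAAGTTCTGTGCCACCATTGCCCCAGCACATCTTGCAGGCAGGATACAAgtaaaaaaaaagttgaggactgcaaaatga
Fas-201: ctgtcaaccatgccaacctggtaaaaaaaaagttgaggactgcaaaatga
The same flanking bases join directly in Fas-201, where the tga at their end is out of frame. Of the other annotated transcripts, Fas-202 (532 bases, 3 exons, 63 codons) ends upstream of the extra exon, Fas-203 (1405 bases) has 8 coding exons, and Fas-205 (509 bases) has no coding sequence. None of the 50-base windows of Fas-204, taken every 10 bases within its exons, occurred in a transcript of another gene, 11 windows of the extra exon included.

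**Figure D1:**
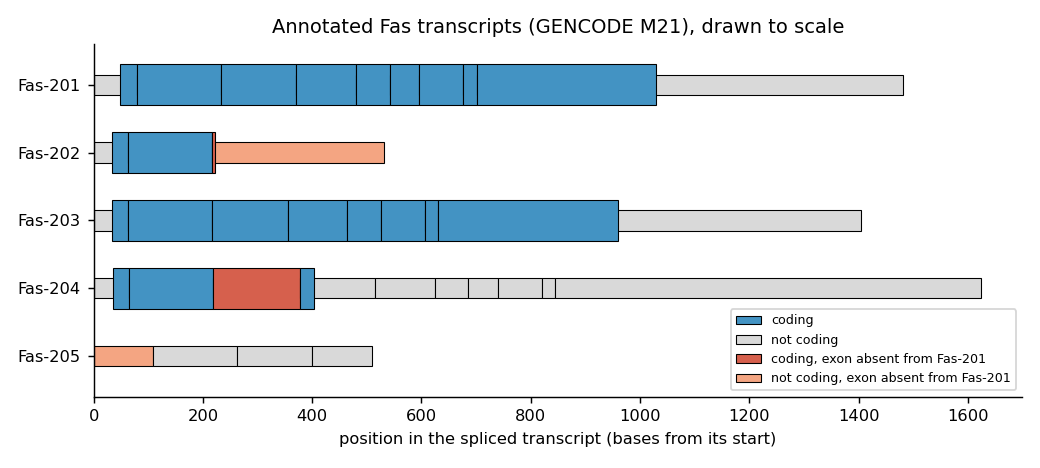
The 5 annotated Fas transcripts, spliced and to scale in bases; tall boxes are coding and low boxes are not, and red or orange marks exons that Fas-201 lacks. Fas-204 keeps the exons of Fas-201, but its coding sequence ends just after the additional exon of 158 bases.

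Mice that carried lpr had no counts on Fas-201 and nearly all of their Fas counts on Fas-204, and C57BL/6 mice had the opposite. Fas-201 had 0 counts in each of the 4 MRL and 4 MRL-IRAK4-KD libraries. It had 584, 345 and 440 counts in C57BL/6 libraries, 98.4% ± 0.415 of all Fas counts (SD, n = 3). In the IRAK4-KD libraries it had 360 counts in replicate 1, 386 in replicate 2 and 0 in the library labelled IRAK4-KD replicate 3. That library therefore stood with the lpr mice and against its label, and the edgeR fold changes of the 8 genes that rest on it are given with and without it, while IRAK4-KD group means include it and DESeq2 was run only with all libraries.

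Fas-204 had 622, 559, 505 and 964 counts in MRL libraries, which was 98.0% ± 1.59 of their Fas counts (SD, n = 4). It had 473, 268, 361 and 369 counts in MRL-IRAK4-KD libraries, or 97.6% ± 1.51 (n = 4). C57BL/6 libraries had 7, 6 and 0 counts on it, and IRAK4-KD replicates 1 and 2 had 5 and 7. The library labelled IRAK4-KD replicate 3 had 514 counts on Fas-204, 99.0% of its Fas counts. Thus, as StringTie, the counting tool, divided the reads, the 2 transcripts excluded each other almost fully in all 14 libraries, and no library was intermediate. Fas-202 had 4 to 42 counts in MRL, 3 to 22 in MRL-IRAK4-KD, 0 to 6 in C57BL/6 and 1 to 5 in IRAK4-KD libraries, with the highest in MRL replicate 4. Fas-203 had 0 counts in all libraries, and Fas-205 had 3 counts in C57BL/6 replicate 3 alone.

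A count of 0 allows up to 3 counts, which for Fas-201 in the lpr libraries was between 0.298% and 1.09% of their Fas counts. Against this limit, set per library and averaged over the group, C57BL/6 mice had at least 212-fold more Fas-201 than MRL mice and at least 165-fold more than MRL-IRAK4-KD mice. IRAK4-KD replicates 1 and 2 had at least 119-fold more than MRL-IRAK4-KD mice. These limits cover counting error only. The transcript counts are StringTie's division of the reads. Since Fas-201 and Fas-204 are otherwise nearly identical in the annotation, that division should rest mainly on reads over the extra exon and its junctions. Such reads were not examined. Within MRL libraries the same tool gave the Casp8 transcript ENSMUST00000165549.7 between 0 and 682 counts, so its zeros need not be counting zeros.

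The share of Fas counts on Fas-201 was 81.8 percentage points lower in the 8 lpr libraries than in the 6 others, grouped by label (2-sided exact permutation test, p = 0.00599, where 0.000666 is the smallest the design allows). The lpr allele is itself an insertion in Fas, and the pattern was known from earlier results of these data. This p therefore reads the labels and is a description. Without the library labelled IRAK4-KD replicate 3 the share was 98.2 points lower. That library was left out for its own counts on Fas-201 and Fas-204, so the separation was fixed beforehand and no p is given. In the fit of all 105421 transcripts with at least 10 counts by edgeR, Fas-201 and Fas-204 did not pass an adjusted p below 0.05 between the lpr and non-lpr groups (adjusted p = 0.342 and 0.397). The fit called 0.0161% of all transcripts there. Without the library labelled IRAK4-KD replicate 3, the edgeR adjusted p was 0.00591 for Fas-201 and 0.0258 for Fas-204, against 0.0229% of transcripts called. Fas-204 was then higher in the lpr groups by 6.35 on the log2 scale (SE 0.76), compared with 4.16 (SE 1.01) with that library. Fas-202, at few counts, was higher in the lpr groups by 2.225 with all libraries (SE 0.909, edgeR adjusted p = 0.639). It was higher by 2.388 (SE 1.05) without the library labelled IRAK4-KD replicate 3. For the same reason, the adjusted p without that library are a description and no test.

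Between single groups, the same fit called 0 of the 37 transcripts tested of the 8 genes in each comparison, where it called 0.00285% of all transcripts between MRL and C57BL/6, 0.0228% between MRL-IRAK4-KD and IRAK4-KD, 0.0218% between MRL and MRL-IRAK4-KD and 0.0313% between IRAK4-KD and C57BL/6 mice. Before adjustment 3 of the 37 had a p below 0.05 in each of these comparisons, where 3.9%, 6.71%, 7.54% and 3.48% of all transcripts did in the same order. Between the lpr and non-lpr groups edgeR called 0 of the 37, and 6 of the 37 were below 0.05 before adjustment, compared with 7.49% of all transcripts. Without the library labelled IRAK4-KD replicate 3, Fas-201 passed between MRL-IRAK4-KD and IRAK4-KD mice (edgeR adjusted p = 0.0273, 0.022% of transcripts called), likewise a description and no test. DESeq2, which called more transcripts in general, called both Fas-201 and Fas-204 between MRL and C57BL/6 (0.813% of transcripts called) and between the lpr and non-lpr groups (2.14%). It called Fas-201 between MRL-IRAK4-KD and IRAK4-KD mice (1.58%). It also called Fas-204 between IRAK4-KD and C57BL/6 mice (adjusted p = 0.0301, 1.07% of transcripts called), which rested on the library labelled IRAK4-KD replicate 3. In edgeR that log2 fold change was 4.62 with this library and 0.25 without it.

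**Figure D2:**
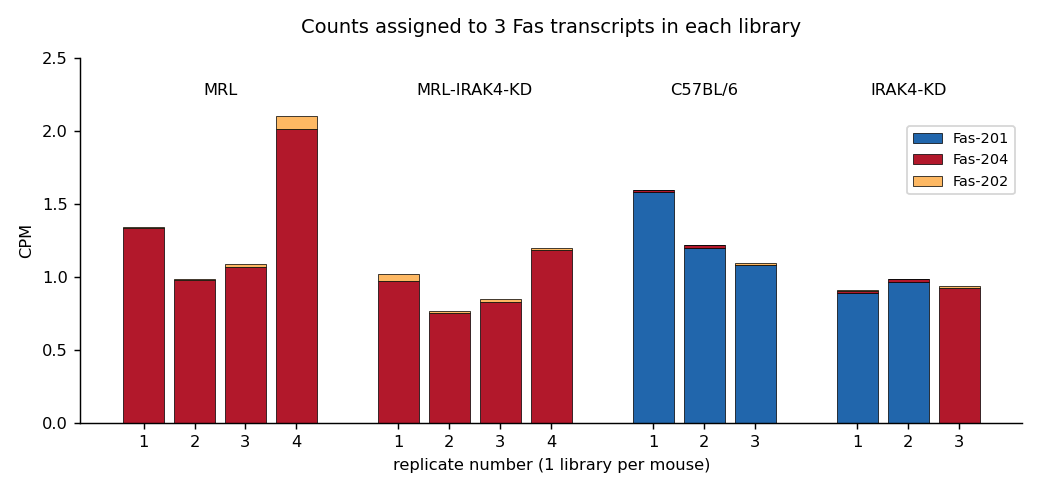
CPM, counts scaled to library size, on Fas-201, Fas-204 and Fas-202 in each library, stacked. Bars of the 8 MRL and MRL-IRAK4-KD libraries are almost wholly Fas-204 and bars of C57BL/6 almost wholly Fas-201, and replicate 3 of IRAK4-KD, unlike replicates 1 and 2, is Fas-204.

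Total counts ranged from 279723718 to 571925600 per library, and StringTie gave between 1.40 and 2.08 counts per sequenced read, so that counts are not independent molecules. MRL-IRAK4-KD replicate 4 stood apart, with 122.4 on a first principal component that held 47.05% of the variance, where the others lay between -20.96 and 5.136. It also had the fewest counts per sequenced read, 1.40, compared with 1.798 or more in the other libraries. Its sum of 8 choroid plexus markers was the highest, 7805 CPM, compared with at most 1851 in any other library. Its sums were also the highest for hippocampal neurons (3708 CPM) and oligodendrocytes (4550 CPM) and the lowest for astrocytes (2605 CPM). The library labelled IRAK4-KD replicate 3 had the highest sum of 8 thalamic and striatal markers, 297.2 CPM, where the next library had 175.9. Markers of hippocampal neurons were present in every library, between 1956 and 3708 CPM in sum. Sums of pituitary markers were highest in MRL replicate 3 (87.43 CPM, at most 6.405 in the others). Astrocyte markers summed to between 2605 and 4638 CPM, oligodendrocyte markers to between 2585 and 4550 CPM, and meningeal and fibroblast markers to between 236.9 and 1222 CPM, the last highest in MRL-IRAK4-KD replicate 4. Irak4 itself had between 1.54 and 2.72 CPM in all libraries, and the kinase-dead form cannot be seen in counts.

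No gene of the 8 was called by edgeR or DESeq2 in the 6 comparisons made. All 8 passed the filter of at least 10 counts and were tested among 38070 genes, with CPM as counts scaled by library size and TMM factors (a normalization that assumes most genes alike) and with p adjusted over all genes. For MRL against MRL-IRAK4-KD, 0 of 8 had an edgeR adjusted p below 0.05 (0.0972% of all genes were called). Before adjustment 2 of 8 were below 0.05 (11.4% of all genes), Fas higher and Bid lower in MRL. Between MRL and C57BL/6 mice 0 of 8 were called (0% of genes) and only Casp8 passed the unadjusted threshold (5.55% of genes). Between MRL-IRAK4-KD and IRAK4-KD mice 0 of 8 were called (0.0735%), and only Fadd passed without adjustment (8.63%). Between IRAK4-KD and C57BL/6 mice 0 of 8 were called (0.147%), and 0 passed without adjustment (3.8%). Between the lpr and non-lpr groups 0 of 8 were called (0.0657%), and Casp8 and Fadd passed without adjustment (10.2%). The interaction of lpr with the kinase-dead form had 0 of 8 called (0.00263%) and 0 without adjustment (4.17%). DESeq2 also called 0 of the 8 in all 6 comparisons. Without the library labelled IRAK4-KD replicate 3, edgeR again called 0 of the 8 in each, and Casp8 alone was below 0.05 before adjustment between the lpr and non-lpr groups. The median log2 fold change of the 8 genes was between -0.06 and 0.08 over the 6 comparisons, and that of all genes was between -0.0079 and 0.0038. The comparisons share groups, so their values are not independent of each other. Where groups are said below to lie wholly above or below others, the share of all genes that do so is not given. Such separation is therefore a description.

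**Figure D3:**
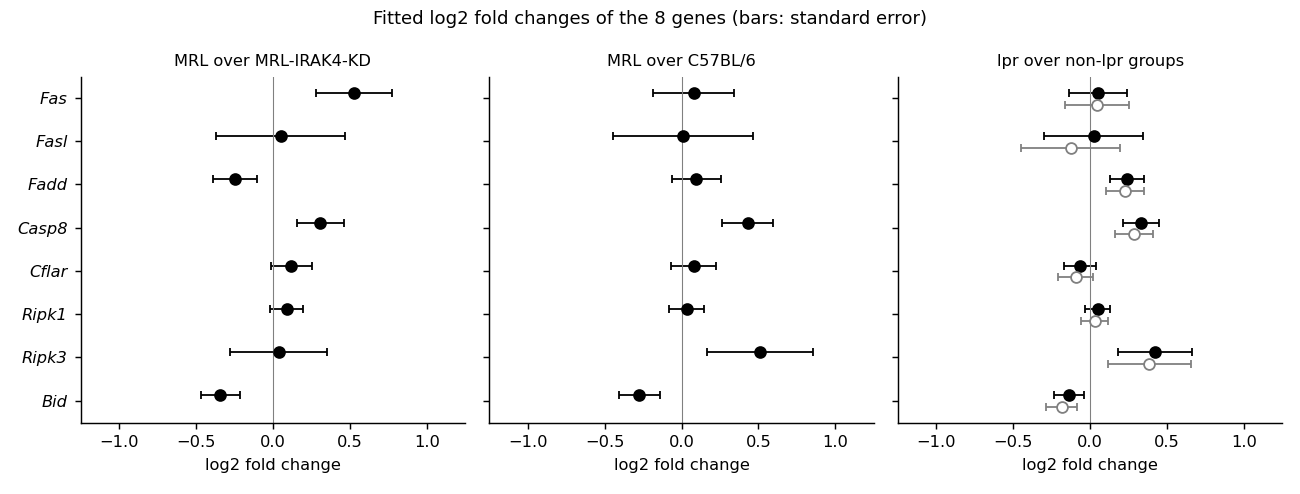
Fitted log2 fold changes (points) with standard errors (bars) of the 8 genes in 3 comparisons; open grey points are without the library labelled IRAK4-KD replicate 3. In the lpr contrast Casp8 sits at 0.33 and Fadd at 0.24, and leaving that library out moved them to 0.29 and 0.22.

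The receptor gene as a whole did not follow its transcripts. Total Fas was 1.35, 0.989, 1.09 and 2.103 CPM in MRL, 1.60, 1.22 and 1.104 in C57BL/6, 1.02, 0.769, 0.848 and 1.20 in MRL-IRAK4-KD and 0.912, 0.986 and 0.935 in IRAK4-KD mice. All IRAK4-KD mice were below every MRL and C57BL/6 mouse, and the other pairs of groups overlapped. Between the lpr and non-lpr groups total Fas differed by 0.05 on the log2 scale (SE 0.19, 95% interval -0.35 to 0.45, edgeR adjusted p = 0.989). It was 0.047 without the library labelled IRAK4-KD replicate 3, and turned to -0.083 without MRL replicate 4 and to -0.0073 without MRL-IRAK4-KD replicate 4. A gene count thus showed no detectable change where the transcripts had changed places. Fas was 0.53 higher on the log2 scale in MRL than in MRL-IRAK4-KD mice (SE 0.24, 95% interval 0.0023 to 1.05), which did not pass adjustment (edgeR adjusted p = 0.439). Without MRL replicate 4, the mouse with the most Fas, the difference was 0.27 (SE 0.21). That mouse also had the highest sum of 8 endothelial markers, 311.4 CPM, where the next had 190.0, and their part in its Fas level was not tested. Between IRAK4-KD and C57BL/6 mice the difference was -0.47 (SE 0.28, interval -1.08 to 0.14, adjusted p = 1), or -0.46 without the library labelled IRAK4-KD replicate 3, and between MRL and C57BL/6 mice 0.08 (SE 0.26, interval -0.49 to 0.65). In such bulk RNA, fewer cells that express a gene and less RNA per cell cannot be told apart.

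Fasl (ENSMUSG00000000817.10, chromosome 1, 161780689 to 161788495), the ligand, is made mainly by activated T cells and natural killer cells. It had between 32 and 111 counts per library, all on Fasl-201, and its groups had nearly the same mean. These were 0.143 ± 0.0314 CPM in C57BL/6 and 0.136 ± 0.0585 CPM in IRAK4-KD mice (SD, n = 3 each), and 0.139 ± 0.0430 CPM in MRL-IRAK4-KD and 0.144 ± 0.0642 CPM in MRL mice (n = 4 each). Fasl differed by a log2 fold change of 0.05 for MRL against MRL-IRAK4-KD (95% interval -0.85 to 0.95) and of 0.024 between the lpr and non-lpr groups (interval -0.66 to 0.71), where it was -0.13 without the library labelled IRAK4-KD replicate 3. The values were thus compatible with any difference within these intervals, which are no limits of detection. The sum of 16 lymphocyte markers was between 2.30 and 7.53 CPM, and was highest in the library labelled IRAK4-KD replicate 3, which had 0.0739 CPM of Fasl, below all libraries but MRL replicate 1.

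Fadd (ENSMUSG00000031077.7, chromosome 7, 144577318 to 144582463), the adaptor, had its highest mean in mice with both alleles. Its values were 2.32, 2.68, 2.88 and 3.61 CPM in MRL-IRAK4-KD, 2.53, 2.46, 2.28 and 2.42 in MRL, 2.19, 2.40 and 2.20 in C57BL/6 and 2.23, 2.27 and 2.09 in IRAK4-KD mice. Every MRL-IRAK4-KD mouse was above every IRAK4-KD mouse, and the MRL and C57BL/6 mice overlapped. Between MRL-IRAK4-KD and IRAK4-KD mice Fadd had a log2 fold change of 0.39 (SE 0.16, 95% interval 0.047 to 0.73, edgeR adjusted p = 0.553). It was 0.26 without MRL-IRAK4-KD replicate 4, the library that stood apart above. It was 0.35 without the library labelled IRAK4-KD replicate 3 (SE 0.19), where Fadd no longer passed the unadjusted threshold. The difference between the lpr and non-lpr groups was 0.24 (SE 0.11, interval 0.0019 to 0.48, adjusted p = 0.487), or 0.22 without the latter library, and for MRL against MRL-IRAK4-KD -0.25 (SE 0.15, interval -0.56 to 0.066), or -0.11 without MRL-IRAK4-KD replicate 4.

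Casp8 (ENSMUSG00000026029.14, chromosome 1, 58795374 to 58847503), the initiator caspase, came closest of the 8 to a call between the lpr and non-lpr groups. It had 3.02, 2.88, 2.93 and 3.704 CPM in MRL, 2.85, 2.48, 2.49 and 2.31 in MRL-IRAK4-KD, 2.56, 2.23 and 2.19 in C57BL/6 and 1.98, 2.62 and 1.86 in IRAK4-KD mice. All MRL mice were above every mouse of the other 3 groups, and the other groups overlapped. Between the lpr and non-lpr groups Casp8 had a log2 fold change of 0.33 (SE 0.12, 95% interval 0.081 to 0.58), with an edgeR adjusted p of 0.366 and a DESeq2 adjusted p of 0.0728. It was 0.29 without the library labelled IRAK4-KD replicate 3 (SE 0.12, edgeR adjusted p = 0.626). Between MRL and C57BL/6 mice it was 0.43 (SE 0.17, interval 0.074 to 0.79, edgeR adjusted p = 0.875), and 0.36 without MRL replicate 4. For MRL against MRL-IRAK4-KD it was 0.31 (SE 0.15, interval -0.020 to 0.63, adjusted p = 0.444), and between MRL-IRAK4-KD and IRAK4-KD mice 0.23 (SE 0.17, interval -0.12 to 0.59), or 0.14 without the library labelled IRAK4-KD replicate 3.

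Marker sums of other cells also differed between the groups. Grouped by label, the sum of 10 microglial markers was between 403.1 and 546.2 CPM in the 8 lpr libraries and between 339.8 and 383.4 CPM in the 6 others, with no overlap. The lowest, 339.8 CPM, was in the library labelled IRAK4-KD replicate 3, which stood with the lpr mice by its Fas transcripts. The sum of 8 endothelial markers was between 168.8 and 311.4 CPM in MRL libraries and between 78.85 and 146.2 CPM in the others. MRL replicate 4 had both the most Casp8 and the highest endothelial sum. MRL-IRAK4-KD replicate 4 had the second-highest microglial sum, 535.3 CPM, and the lowest Casp8 of its group, 2.31 CPM. None of these 18 genes was at 0 in all libraries, and their part in the Casp8 values was not tested.

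Cflar (ENSMUSG00000026031.15, chromosome 1, 58711508 to 58758884), next to Casp8 on the chromosome, encodes the inhibitor c-FLIP. It had 21.1 ± 2.15 CPM in C57BL/6 and 23.8 ± 1.45 CPM in IRAK4-KD mice (SD, n = 3 each), and 20.5 ± 1.64 CPM in MRL-IRAK4-KD and 22.3 ± 4.68 CPM in MRL mice (n = 4 each). All groups overlapped. Its log2 fold change was -0.067 between the lpr and non-lpr groups (95% interval -0.29 to 0.15; -0.093 without the library labelled IRAK4-KD replicate 3) and 0.12 for MRL against MRL-IRAK4-KD (interval -0.17 to 0.41), where it was 0.024 without MRL replicate 4 and 0.24 without MRL replicate 2. The values were thus compatible with any change of Cflar within these intervals, which are no limits of detection.

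Ripk1 (ENSMUSG00000021408.15, chromosome 13, 34002363 to 34037147), the kinase shared by survival and death signalling, had the narrowest intervals. It had 6.31 ± 0.300 CPM in C57BL/6 and 5.80 ± 0.294 CPM in IRAK4-KD mice (SD, n = 3 each), and 6.07 ± 0.235 CPM in MRL-IRAK4-KD and 6.46 ± 0.715 CPM in MRL mice (n = 4 each). Ripk1 differed by 0.049 on the log2 scale between the lpr and non-lpr groups (95% interval -0.13 to 0.22; 0.030 without the library labelled IRAK4-KD replicate 3) and by 0.09 for MRL against MRL-IRAK4-KD (interval -0.14 to 0.32), or 0.027 without MRL replicate 4. Ripk3 (ENSMUSG00000022221.14, chromosome 14, 55784995 to 55788865), the kinase of necroptosis, was far lower, at 0.236 ± 0.110 CPM in C57BL/6, 0.260 ± 0.0973 in IRAK4-KD, 0.336 ± 0.0624 in MRL and 0.327 ± 0.0352 in MRL-IRAK4-KD mice. Its range of 0.285 to 0.414 CPM in the lpr libraries overlapped with that of 0.146 to 0.368 CPM in the others. Ripk3 had a log2 fold change of 0.42 between the lpr and non-lpr groups (SE 0.24, interval -0.099 to 0.94, edgeR adjusted p = 0.585), which was 0.39 without the library labelled IRAK4-KD replicate 3, and of 0.037 for MRL against MRL-IRAK4-KD (interval -0.64 to 0.71), which was -0.061 without MRL replicate 4.

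Bid (ENSMUSG00000004446.12, chromosome 6, 120891930 to 120916853), which carries the death signal to mitochondria, had its lowest mean in MRL mice. It had 9.18, 7.60, 8.66 and 7.25 CPM in MRL, 11.003, 8.57, 10.7 and 11.1 in MRL-IRAK4-KD, 9.79, 10.2 and 9.66 in C57BL/6 and 12.1, 10.1 and 8.87 in IRAK4-KD mice. Every MRL mouse was below every C57BL/6 mouse, and of the MRL-IRAK4-KD mice only replicate 2 lay within the range of MRL mice, as did the library labelled IRAK4-KD replicate 3. For MRL against MRL-IRAK4-KD the log2 fold change of Bid was -0.34 (SE 0.13, 95% interval -0.61 to -0.070, edgeR adjusted p = 0.437), and -0.27 without MRL replicate 4. Between MRL and C57BL/6 mice it was -0.27 (SE 0.14, interval -0.57 to 0.020, adjusted p = 0.908), and between the lpr and non-lpr groups -0.14 (SE 0.097, interval -0.34 to 0.072), or -0.19 without the library labelled IRAK4-KD replicate 3. The endothelial and blood marker sums also were higher in MRL than MRL-IRAK4-KD mice, with an overlap for blood (5 genes, 83.94 to 368.8 CPM in MRL libraries, 52.92 to 193.3 CPM in those of MRL-IRAK4-KD), and their part in the Bid values was not tested.

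**Figure D4:**
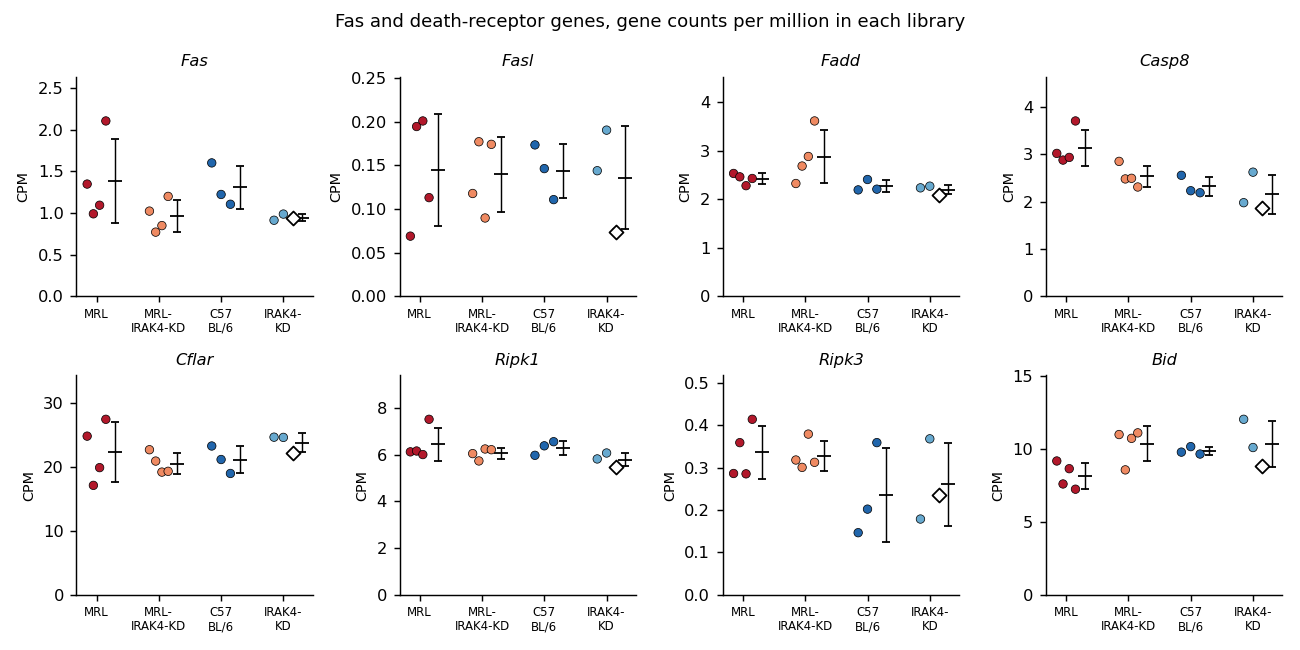
CPM of the 8 genes in each library (dots) with group means and SD (bars beside them, n = 4, 4, 3 and 3); the open diamond is the library labelled IRAK4-KD replicate 3. The 4 MRL mice are above all other mice for Casp8 and below all C57BL/6 mice for Bid, and all groups overlap for Fasl and Cflar.

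Levels between genes were compared per kb of transcript, summed over all annotated transcripts of a gene, coding or not. Cflar had 4.82 ± 0.594 CPM per kb (SD over 14 libraries) and Bid 4.48 ± 0.637, and their ranges overlapped. Ripk1 had 1.24 ± 0.242, Casp8 1.08 ± 0.242, Fas 0.757 ± 0.237 and Fadd 0.633 ± 0.0997 CPM per kb, and each overlapped with its neighbour in this order. Ripk3, with 0.187 ± 0.0567, and Fasl, with 0.0727 ± 0.0235 CPM per kb, were lowest. Ranges did not overlap between Bid, at 3.38 or more, and Ripk1, at 1.97 or less, nor between Fadd, at 0.536 or more, and Ripk3, at 0.282 or less. Summed RNA of Cflar was therefore above that of Casp8 and of Fas in every library. Of the Cflar level, the coding transcript Cflar-205 held a mean of 2.92 CPM per kb. Fas was mostly Fas-204 in the lpr libraries (94.1% per kb in MRL and 93.1% in MRL-IRAK4-KD mice). Protein levels were not measured here.

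The transcripts with the highest mean count per kb of the other genes were Fasl-201, Fadd-201, ENSMUST00000027189.14 of Casp8, Cflar-205, ENSMUST00000167374.8 of Ripk1, ENSMUST00000168716.7 of Ripk3 and Bid-201. Bid-201 held between 99.1% and 99.6% of the Bid counts in the group means, and Cflar-205 between 85.8% and 90.2% of those of Cflar. The split of Casp8 was unstable within groups. Its transcript ENSMUST00000165549.7, which has the same coding length as the leading transcript, had 660, 0, 682 and 148 counts in MRL, 7, 13, 332 and 0 in MRL-IRAK4-KD, 536, 0 and 5 in C57BL/6 and 0, 0 and 0 in IRAK4-KD libraries. DESeq2 called it between IRAK4-KD and C57BL/6 mice, which rested on C57BL/6 replicate 1, and edgeR did not. For 5 of the 8 genes another annotated gene overlaps on either strand (Fas, Fadd, Casp8, Ripk1 and Bid), and because the sources used here do not say whether counting used strand, reads of overlapping parts cannot be told apart.

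Of 61 other genes of the death pathways, in 8 lists of receptors, decoys, ligands, adaptors, ubiquitin machinery and inhibitors, executioner caspases, the mitochondrial arm and necroptosis, all 61 were tested and edgeR called 0 in either direction in each of the 6 comparisons. Before adjustment, 5 were higher and 4 lower in MRL than MRL-IRAK4-KD mice at a p below 0.05 (11.4% of all genes passed this), 3 higher and 0 lower than in C57BL/6 mice (5.55%), and 4 higher and 1 lower in MRL-IRAK4-KD than in IRAK4-KD mice (8.63%). There were 0 in either direction between IRAK4-KD and C57BL/6 mice (3.8%), 7 higher and 1 lower in the lpr groups (10.2%), and 2 in each direction for the interaction (4.17%). Without the library labelled IRAK4-KD replicate 3, edgeR again called 0 of the 61 in each comparison, and before adjustment 2 were higher and 2 lower in the lpr groups (7.69% of all genes) and 1 higher and 2 lower in MRL-IRAK4-KD than in IRAK4-KD mice (4.45%). The median log2 fold change of the 61 genes was between -0.041 and 0.080. DESeq2 called 1 of them in each of 4 comparisons (Pmaip1 in the first 2 below, Endog in the last 2), where it called 1.34% of genes for MRL against MRL-IRAK4-KD, 0.742% between MRL and C57BL/6, 1.06% between MRL-IRAK4-KD and IRAK4-KD mice and 2.71% between the lpr and non-lpr groups.

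Pmaip1, which encodes the pro-apoptotic protein Noxa, had its highest values in MRL mice. It had 2.19, 1.69, 1.88 and 2.73 CPM in MRL, 1.15, 1.18, 1.04 and 0.708 in MRL-IRAK4-KD, 1.02, 1.27 and 1.11 in C57BL/6 and 1.105, 1.35 and 1.02 in IRAK4-KD mice. Every MRL mouse was above every mouse of the other groups, as it was for the sum of endothelial markers (168.8 CPM or more, against 146.2 or less), whose part in the Pmaip1 values was not tested. For MRL against MRL-IRAK4-KD Pmaip1 had a log2 fold change of 1.06 (SE 0.21), with an adjusted p of 0.136 in edgeR and 0.000119 in DESeq2, and it was 0.93 without either MRL replicate 4 or MRL-IRAK4-KD replicate 4. Between MRL and C57BL/6 mice it was 0.90 (SE 0.23), with an adjusted p of 0.558 in edgeR and 0.0139 in DESeq2. The interaction of lpr with the kinase-dead form was -1.09 for Pmaip1 (SE 0.32, edgeR adjusted p = 0.914, DESeq2 adjusted p = 0.145), and -1.17 without the library labelled IRAK4-KD replicate 3. Noxa acts with Bid in the mitochondrial arm, and the list of that arm had 1 gene higher and 1 lower of 14 in MRL than MRL-IRAK4-KD mice before adjustment.

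Endog, a mitochondrial nuclease released in apoptosis, had higher means in both lpr groups than in the others. DESeq2 called it between MRL-IRAK4-KD and IRAK4-KD mice and between the lpr and non-lpr groups, but not between MRL and C57BL/6 mice. The edgeR fit of all libraries did not call Endog. It had 5.15, 4.81, 4.34 and 3.30 CPM in MRL, 6.17, 4.99, 5.02 and 13.2 in MRL-IRAK4-KD, 3.20, 3.67 and 3.76 in C57BL/6 and 3.47, 2.87 and 2.30 in IRAK4-KD mice. Of the 8 lpr mice, only MRL replicate 4 lay within the range of the non-lpr mice. Its log2 fold change between the lpr and non-lpr groups was 0.83 (SE 0.22), with an adjusted p of 0.214 in edgeR and 0.0135 in DESeq2. Without MRL-IRAK4-KD replicate 4, the library that stood apart above, it was 0.61 (SE 0.12, edgeR adjusted p = 0.0368), in a fit that called 0.901% of genes. Without the library labelled IRAK4-KD replicate 3 it was 0.76 (SE 0.24). Between MRL-IRAK4-KD and IRAK4-KD mice it was 1.35 (SE 0.31, edgeR adjusted p = 0.268, DESeq2 adjusted p = 0.00431), and leaving out MRL-IRAK4-KD replicate 4 gave 0.91. It was 1.21 without the library labelled IRAK4-KD replicate 3. Between MRL and C57BL/6 mice the edgeR value of Endog was 0.31 (SE 0.31) without that library. It was 0.32 (SE 0.17) without MRL-IRAK4-KD replicate 4.

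Zbp1, a sensor of nucleic acids that activates RIPK3, had 0.561, 0.487, 0.370 and 5.0003 CPM in MRL mice and at most 0.416 CPM in any mouse of the other groups. For MRL against MRL-IRAK4-KD the log2 fold change of Zbp1 was 2.76 (SE 0.78, edgeR adjusted p = 0.393), and 1.01 (SE 0.46) without MRL replicate 4. Tnfsf10, which encodes the death ligand TRAIL, likewise had 13.2 CPM in MRL replicate 4 and between 0.287 and 3.41 CPM in all other mice. Its log2 fold change between MRL and C57BL/6 mice was 1.57 (SE 0.67, adjusted p = 0.895), and 0.60 without that mouse. Birc3, an inhibitor of apoptosis protein, had 1.16 ± 0.287 CPM in MRL-IRAK4-KD and 1.88 ± 0.452 CPM in MRL mice (log2 fold change 0.70, SE 0.23, edgeR adjusted p = 0.411). Faim, an inhibitor of Fas-induced apoptosis, had 26.9 ± 3.48 and 21.3 ± 1.80 CPM in the same groups (log2 fold change -0.33, SE 0.10, adjusted p = 0.402).

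Apaf1, the scaffold on which caspase-9 is activated, had a log2 fold change of -0.33 between the lpr and non-lpr groups (SE 0.11, edgeR adjusted p = 0.346; -0.36 without the library labelled IRAK4-KD replicate 3). It had 19.6 ± 2.95 CPM in MRL, 17.3 ± 3.41 in MRL-IRAK4-KD, 23.6 ± 1.81 in C57BL/6 and 22.8 ± 2.26 in IRAK4-KD mice. Tradd, the adaptor of the tumour necrosis factor receptor, had one of 0.25 (SE 0.11, adjusted p = 0.465; 0.22 without that library). Between MRL-IRAK4-KD and IRAK4-KD mice the log2 fold change was 0.44 for Tradd (SE 0.16), -0.40 for Apaf1 (SE 0.16) and 0.42 for Bbc3 (SE 0.19), which encodes the pro-apoptotic protein PUMA, each with an edgeR adjusted p of 0.553. Without the library labelled IRAK4-KD replicate 3 these values were 0.37, -0.45 and 0.34. Between IRAK4-KD and C57BL/6 mice Tnfrsf22, a decoy receptor gene, had the lowest p of the list in edgeR (log2 fold change -0.39 with or without the library labelled IRAK4-KD replicate 3, SE 0.19 with it, adjusted p = 1).

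**Figure D5:**
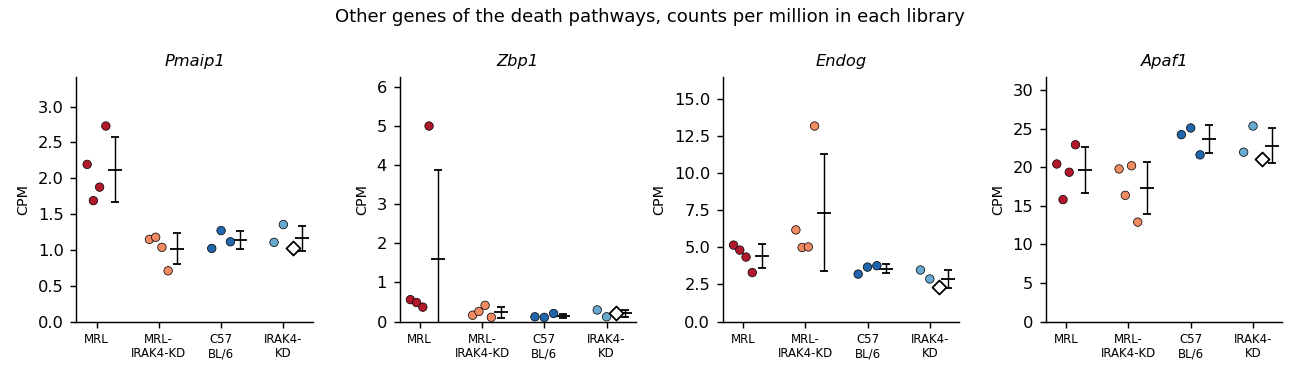
CPM of Pmaip1, Zbp1, Endog and Apaf1 in each library (dots) with group means and SD (bars, cut at 0 for Zbp1); the open diamond is the library labelled IRAK4-KD replicate 3. All 4 MRL mice are above the other mice for Pmaip1, and 1 MRL mouse sets the mean of Zbp1.

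The genes whose levels followed total Fas most closely over the 14 libraries were sought among 16103 genes with a mean of at least 1 CPM, by Pearson correlation of log2(CPM + 0.1). They were C4a, a complement gene (r = 0.900), B3gnt3 (0.844), the mitochondrial tRNA gene mt-Tk (0.839), Itga1 (0.817) and Gm20559 (0.813). C4a had group means of 4.81 CPM in MRL, 3.86 in MRL-IRAK4-KD, 4.82 in C57BL/6 and 3.72 in IRAK4-KD mice, the same order of MRL and C57BL/6 above both kinase-dead groups as total Fas. Among 59212 transcripts of at least 0.1 CPM, those most like Fas-201 were transcripts of Cct3 (ENSMUST00000193666.1, r = 0.857), Gm14057 (ENSMUST00000120631.1, 0.857), Cyp26a1 (ENSMUST00000025946.6, 0.853), 4930432E11Rik (ENSMUST00000063585.8, 0.852) and Gm44164 (ENSMUST00000203605.1, 0.850). Cyp26a1 encodes an enzyme that degrades retinoic acid and lies on chromosome 19 as Fas does, at 37697798 to 37701536. Its transcript had mean levels of 0.102 CPM in MRL, 0.126 in MRL-IRAK4-KD, 0.562 in C57BL/6 and 0.430 in IRAK4-KD mice, with 0.227 CPM in the library labelled IRAK4-KD replicate 3. These correlations describe libraries that share depth and tissue composition and are no test.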

How the data were processed

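Hippocampal poly(A) RNA of 14 mice was measured by RNA-seq, with 1 library per mouse. The methods name SMART-seq and NexteraXT libraries, and the sample record names a KAPA HyperPrep mRNA kit. Per the labels and methods, HISAT2 2.1.0 (alignment to mm10), SAMtools 1.9 and StringTie 2.1.0 were used by the authors, who deposited whole-number StringTie counts, not normalized, for genes and transcripts. The annotation was not given in the sources used here, and all identifiers match GENCODE M21.

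From these counts, Ensembl features that summed to at least 10 were tested in edgeR 4.0.16 (R 4.3.3; TMM, robust quasi-likelihood F test, a single model of the 4 groups, Benjamini-Hochberg adjustment over all features, threshold 0.05). SE is the log2 fold change over the root of F, and 95% intervals use the t distribution of that test. The method was tried on simulated data with set fold changes, in which no transcript was set to 0 in whole groups. It therefore does not cover the case of Fas-201. DESeq2 1.42.0, RLE factors, no filter, halved counts, a replicate block and each library left out were alternatives. The share of Fas-201 was compared by exact permutation (scipy 1.17.1). P-values measure the spread between mice.

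The 8 genes, the 61 pathway genes and 11 marker lists were chosen with earlier results of these data known. The text names all 8 genes, all Fas transcripts, the top transcript per kb of the others, up to 4 pathway genes per comparison (called, else lowest p) and the 5 genes or transcripts most like Fas. A second Casp8 transcript was chosen after its values were seen.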

Additional observations from a re-analysis of the deposited data

Results flagged for a closer look

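In groups of 4 mice, a value far from the other 3 was sought for each of the 8 genes and each Fas transcript (Dixon's test, 20 groups, of which chance flags about 1 in 20). Casp8 was 3.704 CPM in MRL replicate 4, and between 2.88 and 3.02 CPM in the other MRL mice. Ripk1 was 7.53 CPM in the same mouse, and between 6.02 and 6.17 CPM in the other MRL mice. Bid was 8.57 CPM in MRL-IRAK4-KD replicate 2, and between 10.7 and 11.1 CPM in the other mice of that group. The cause of these values was not tested.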

How the results depend on the processing

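The count of called genes among the 8 was 0 under all 19 alternatives in each comparison, and the share of Fas-201 stayed lower in the lpr groups, by 78.4 to 98.2 points with each library left out and by 81.0 points per kb. Genes called over the whole table depended on the tool. With DESeq2 they were 397 between MRL and MRL-IRAK4-KD (37 in edgeR), 203 between MRL and C57BL/6 (0, with 2112 at an unadjusted p below 0.05), 305 between MRL-IRAK4-KD and IRAK4-KD (28), 162 between IRAK4-KD and C57BL/6 (56), 761 between the lpr and non-lpr groups (25) and 60 for the interaction (1). Called transcripts were 674, 711, 1351, 933 and 1829 in the first 5 of these, against 23, 3, 24, 33 and 17 in edgeR. The interaction had 4 called genes with halved counts and 4 without the filter. Leaving out each library gave 0 to 21 genes between MRL and C57BL/6, 11 to 65 between MRL-IRAK4-KD and IRAK4-KD, 33 to 106 between IRAK4-KD and C57BL/6, 2 to 341 between the lpr and non-lpr groups and 1 to 15 for the interaction, each highest without MRL-IRAK4-KD replicate 4. Transcripts called were 12 to 31 between MRL and MRL-IRAK4-KD, 3 to 9 between MRL and C57BL/6, 17 to 81 between MRL-IRAK4-KD and IRAK4-KD, 29 to 91 between IRAK4-KD and C57BL/6 and 13 to 66 between the lpr and non-lpr groups. The cause was not tested.

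With each library left out, the log2 fold change of Fasl was between -0.13 and 0.28 for MRL against MRL-IRAK4-KD and between -0.13 and 0.18 for the lpr contrast, that of Ripk3 between -0.061 and 0.13 for MRL against MRL-IRAK4-KD, and that of Fas between -0.18 and 0.25 for MRL against C57BL/6 and between -0.083 and 0.13 for the lpr contrast. The replicate numbers were not taken to pair the mice. Correlations of libraries ranged from -0.21 to 0.36 in same-number pairs, 5 of 19 of them above 0.1. They ranged from -0.39 to 0.37 in different-number pairs, and these overlapping ranges cannot exclude pairing. With the replicate block, Fas was -0.16 in the lpr contrast and -0.14 between MRL and C57BL/6, called genes were 5 in the lpr contrast and 2 for the interaction, and called transcripts were 10 between MRL and MRL-IRAK4-KD and 15 between MRL-IRAK4-KD and IRAK4-KD mice. Fasl, with 32 to 111 counts per library, had the widest intervals of the 8 genes, and how far depth set them was not tested.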
